A study of Mus musculus with 4 samples.

Results

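The NF-κB subunit genes Rela and Rel and the NF-κB feedback and response genes Nfkbia, Tnfaip3, Traf1, Birc3 and Bcl3 were measured in Peyer's patches (PP) and intestinal epithelial cells (IECs) of GF and colonized mice. Members were taken by gene symbol, as every probe set annotated to 1 of 8 chosen symbols, and 7 of the 8 genes had a probe set, 14 in all, of 18193 genes and 34945 single-gene probe sets on the array. No probe set is named for the subunit gene Nfkb1 in the annotation used here, so it was not analysed here. All mice were C57BL/6 kept in vinyl isolators. GF mice carried no microbes, and NK318.1 mice were GF mice that received 100000000 bacteria of the single Lactobacillus strain L.NK318.1 and were sampled 2 weeks later. Each of the 4 groups was hybridized to 1 Affymetrix array as a pool (n = 6 in the legend of the study), so mice within a group cannot be compared, no test exists, and every difference given is between a pair of arrays. The age of these mice is not given in their labels, and the general methods name 4-week-old recipients.

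NF-κB is a family of transcription factors that sits in the cytoplasm bound to IκB proteins and moves to the nucleus when a kinase complex, switched on by Toll-like receptors, TNF receptors or antigen receptors, marks IκB for destruction. Rela (p65) and Rel (c-Rel) encode subunits that carry the activating domain, Rel being most used in lymphocytes. Nfkbia (IκBα) and Tnfaip3 (A20, a ubiquitin-editing enzyme) are induced by NF-κB and switch it off again, Traf1 and Birc3 (cIAP2) are induced members of the TNF receptor complexes, and Bcl3 encodes an atypical IκB protein that acts in the nucleus. The arrays measured mRNA only, so they hold no value for the place or the phosphorylation of the subunits.

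The 250 bases before the transcription start of the genes are given for 4 members (RefSeq, mouse build GRCm38.p6, written 5′ to 3′ on the gene's strand), to show where the κB motif, the DNA letters that NF-κB binds, lies in genes read off these arrays. All 7 measured members matched an entry, with 2 entries for Tnfaip3, and the 10-base κB consensus was searched on both strands. Capitals mark its matches. On this build Rela spans chr19:5637442-5648134, Rel chr11:23736847-23770969, Nfkbia chr12:55489409-55492647 and Tnfaip3 chr10:19000910-19015410. Traf1 spans chr2:34941750-34961812, Birc3 chr9:7847468-7873205 and Bcl3 chr7:19808462-19822824. Each window searched lies before the listed start of its entry. For Rela, Traf1, Birc3 and Bcl3, and for the other Tnfaip3 entry, that start is inside the annotated span of the gene.
Rel promoter, chr11:23770970-23771219, minus strand: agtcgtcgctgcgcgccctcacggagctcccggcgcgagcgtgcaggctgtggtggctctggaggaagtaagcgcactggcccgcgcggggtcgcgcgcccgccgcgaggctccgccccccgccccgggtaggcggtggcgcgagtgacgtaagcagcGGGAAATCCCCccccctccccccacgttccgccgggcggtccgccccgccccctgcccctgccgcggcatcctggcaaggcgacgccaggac
Nfkbia promoter, chr12:55492648-55492897, minus strand: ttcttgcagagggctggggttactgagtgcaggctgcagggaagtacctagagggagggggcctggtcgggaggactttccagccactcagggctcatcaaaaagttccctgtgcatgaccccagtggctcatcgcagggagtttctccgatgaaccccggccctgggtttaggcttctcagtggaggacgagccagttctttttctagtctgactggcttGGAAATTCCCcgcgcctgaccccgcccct
Tnfaip3 promoter, chr10:19015411-19015660, minus strand: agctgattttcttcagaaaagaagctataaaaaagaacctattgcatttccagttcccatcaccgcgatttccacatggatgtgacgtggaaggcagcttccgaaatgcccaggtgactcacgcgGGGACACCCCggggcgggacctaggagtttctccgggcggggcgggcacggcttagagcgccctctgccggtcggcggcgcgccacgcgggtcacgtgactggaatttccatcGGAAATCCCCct
Traf1 promoter, chr2:34961773-34962022, minus strand: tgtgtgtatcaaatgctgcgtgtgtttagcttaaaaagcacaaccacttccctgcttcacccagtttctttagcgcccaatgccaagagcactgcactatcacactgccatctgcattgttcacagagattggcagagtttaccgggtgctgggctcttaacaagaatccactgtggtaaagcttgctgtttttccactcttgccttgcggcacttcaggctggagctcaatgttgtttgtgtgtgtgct
In the Nfkbia promoter the match began 29 bases before the start. The Tnfaip3 promoter held 2 matches, which began 125 and 12 bases before the start, and the one in Rel, which reads as a match on both strands and overlaps another, began 92 bases before it. No match lay in the window of Rela, Traf1, Birc3 or Bcl3 or in the other Tnfaip3 window. Of 32851 promoters of this length, 3.90% held a match. A match describes these letters only, and no binding was measured.

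A few facts of the arrays bear on each value below. Median signals were 23.0 to 23.3, and signals under 15.5 were raised to that floor. The 3′/5′ ratio of the β-actin control probe sets, a sign of RNA breakage, was 1.60 and 1.74 in the GF and colonized PP but 2.73 and 4.10 in the IECs. Xist, an RNA of female cells, had signals of 21.7 and 4586 in the GF and colonized PP and 46.7 and 4889 in the IECs, and the Y-linked Eif2s3y had 300.1, 2.998, 147 and 2.41 in the same order. The pools therefore differed in these sex-linked genes although the methods state that mice were matched for gender, and colonization and the sex of the pools cannot be told apart in any ratio given here. Tissue labels were checked on marker genes: all 7 leukocyte markers were over 2-fold higher in the PP of GF mice than in their IECs (median log2 ratio 4.94), and all 15 epithelial markers were lower (median −7.15). In RNA of whole tissue pools, fewer cells of a type and less RNA per cell cannot be told apart, in any of the results.

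Rela had a MAS5 signal, the linear intensity of its probe set (1419536_a_at), of 482 in the GF PP, 499 in the colonized PP, 190 in GF IECs and 174 in colonized IECs. Colonized over GF, these gave a log2 ratio of 0.05 in the PP and −0.13 in the IECs. Rela signals were thus high in both PP arrays and lower in both IEC arrays, while the arrays of 1 tissue lay close together. For Rel (1420710_at), the signals were 111, 107, 30.0 and 24.4 in the same order, with log2 ratios of −0.06 in the PP and −0.30, or 1.23-fold lower, in the IECs. Both subunits had the same order of arrays by tissue, and neither came near the 2-fold limit at which genes were counted with colonization.

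Nfkbia, the gene of IκBα, was read by 5 probe sets. The brightest (1420088_at) had 4671 and 4991 in the GF and colonized PP and 3203 and 2767 in the IECs, which are log2 ratios of 0.10 and −0.21. Over all 5 the ratio in the PP ran from −0.19 to 0.14, with 2 above 0 and 3 below. In the IECs it ran from −0.35 to 0.25, with 3 above 0 and 2 below. The 5 probe sets of Nfkbia thus gave no common direction with colonization in either tissue.

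Tnfaip3, which encodes A20, had a signal of 620 in the GF and 461 in the colonized PP by its brighter probe set (1433699_at), 1.34-fold lower. In the IECs the same probe set had 321 for GF and 111 for colonized mice, which is 2.90-fold lower (log2 ratio −1.53). Tnfaip3 was the member furthest apart between GF and colonized arrays, and 64 of 13875 measured genes had a lower ratio in the IECs. Its other probe set (1450829_at) had signals of 13.6, 13.9, 16.8 and 10.5, so that only the GF IEC array lay above the floor and the ratio is bounded at −0.12 or lower. That probe set gave no ratio in the PP. When the log2 signals of both probe sets were averaged before the floor was applied, so that the dim one counted as it stands, the ratio in the IECs was −1.11. With the dim one at its bound, the mean of the pair of ratios was −0.83.

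Traf1, an adaptor of TNF receptor complexes, had 288 and 351 in the GF and colonized PP (1445452_at), 1.22-fold higher. In the IECs it had 32.5 and 15.8, 2.06-fold lower with a log2 ratio of −1.04, and 183 measured genes had a lower ratio. The colonized IEC signal lay just above the floor of 15.5. The other probe set (1423602_at) had 185, 183, 17.4 and 9.41, a log2 ratio of −0.02 in the PP and of −0.17 or lower in the IECs. Traf1 was thus read well above the floor in the PP only, where its probe sets gave −0.02 and 0.29. With averaged probe sets the colonized IEC signal lay under the floor and the ratio is bounded at −0.62 or lower, short of 2-fold as a bound, and with a floor at the 60th percentile of signal neither IEC array counted as measured.

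Birc3, the gene of cIAP2, gave 1737 and 1314 in the GF and colonized PP (1421392_a_at), 1.32-fold lower. In the IECs it gave 329 and 245, 1.34-fold lower. Birc3 was lower in the colonized array by both of its probe sets in both tissues, since the other probe set (1425223_at) had log2 ratios of −0.56 and −0.27, with signals of 235, 159, 22.0 and 18.3. RefSeq lists the names Birc2 and cIAP1 among the synonyms of Birc3, and cross-hybridization between these neighbouring related genes was not tested. Birc2 itself had a log2 ratio of −0.15 in the PP and 0.14 in the IECs.

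Bcl3, the nuclear IκB protein, had 186 and 151 in the GF and colonized PP (1418133_at), 1.23-fold lower. In the IECs it had 101 and 133, 1.32-fold higher, with a log2 ratio of 0.40. Bcl3 was the only member above 0 in the IECs when each gene is taken by its brightest probe set.

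**Figure D1:**
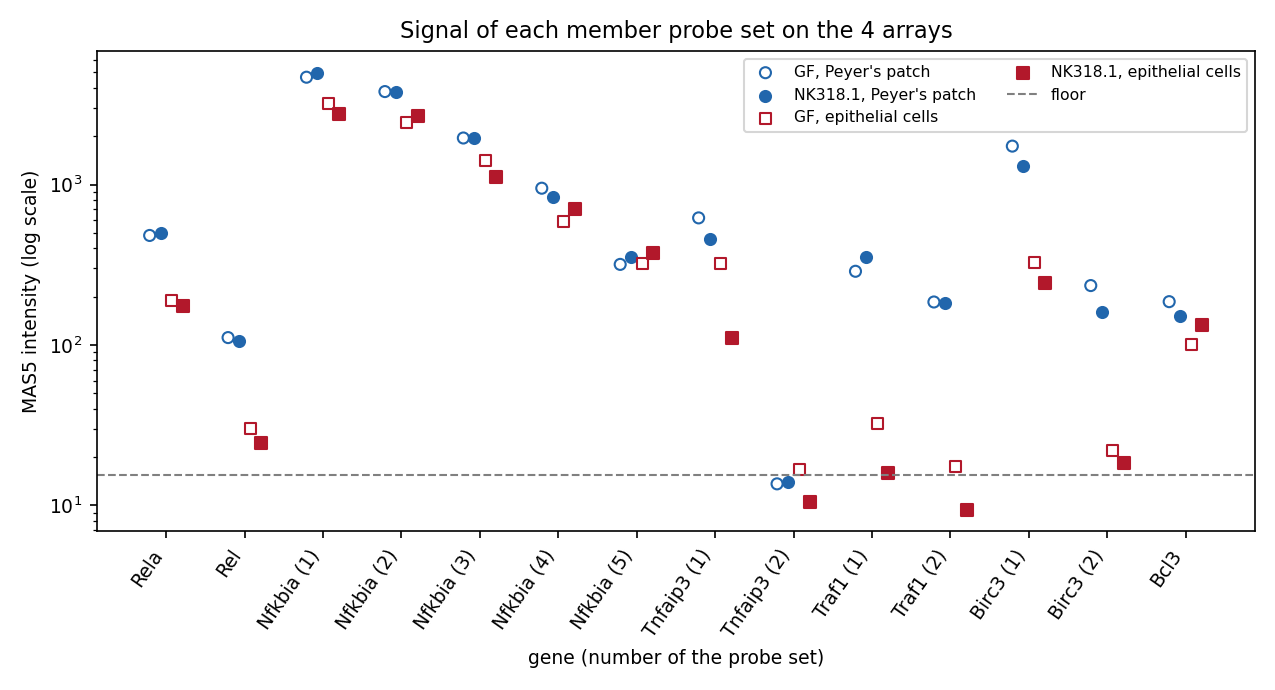
MAS5 intensity (log scale) of each of the 14 member probe sets on the 4 arrays, with 1 pooled array per group and probe sets numbered within a gene from the brightest; the dashed line is the floor of 15.5. Apart from Nfkbia probe set 5 and Tnfaip3 probe set 2, both PP signals (blue) lie above both IEC signals (red), and the Tnfaip3 and Traf1 signals of the colonized IECs fall away from those of GF mice.

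With colonization in the PP, none of the 7 members was at least 2-fold higher and none at least 2-fold lower. Over the 12737 genes measured, 0.149% passed 2-fold upward and 0.573% downward, and a count of 0 of 7 lies near those shares. The members' median log2 ratio was −0.06, against −0.03 over all measured genes, whose central 95% ran from −0.60 to 0.41. All 7 ratios lay inside that range, from −0.43 for Tnfaip3 to 0.29 for Traf1. Tnfaip3 stood at percentile 5.33 of measured genes, Birc3 at 6.14 and Traf1 at 93.8.

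In the IECs 0 of 7 members were at least 2-fold higher and 2 of 7, Tnfaip3 and Traf1, at least 2-fold lower. Over all 13875 measured genes these shares were 2.63% and 1.54%. The median of the members was −0.30, against 0.02 over all measured genes, and 6 of 7 lay below 0, as did 47.6% of measured genes. The central 95% of all ratios ran from −0.86 to 1.03, with Tnfaip3 at percentile 0.461, Traf1 at 1.32, Birc3 at 12.2 and Bcl3 at 83.0. By probe set, 2 of 14 were at least 2-fold lower and 4 of 14 above 0, of which 3 belong to Nfkbia and 1 to Bcl3.

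**Figure D2:**
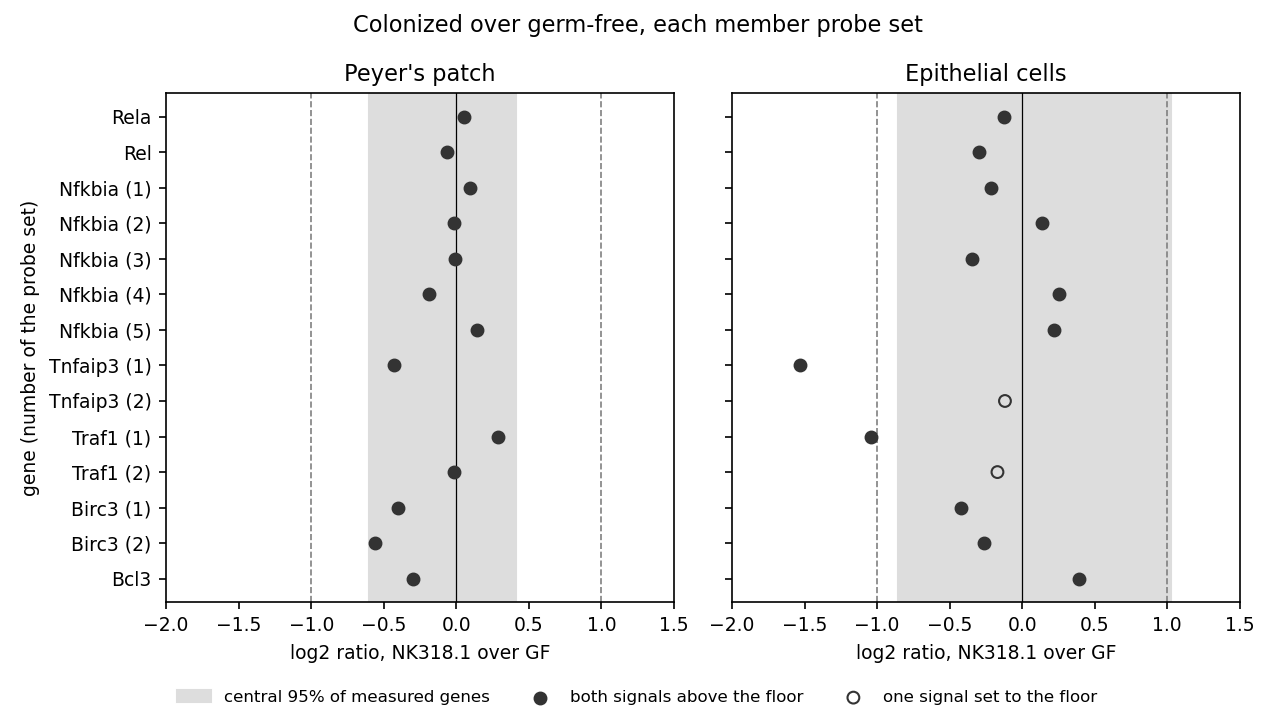
Log2 ratio of signal, NK318.1 over GF, for each member probe set in the PP and the IECs; the grey band holds the central 95% of all measured genes, dashed lines mark 2-fold, and open circles are ratios with 1 signal raised to the floor. Only Tnfaip3 (−1.53) and Traf1 (−1.04) in the IECs lie outside the dashed lines.

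Markers of other cells moved in the same IEC arrays. Of 7 leukocyte markers 5 were at least 2-fold lower in the colonized array (median −1.37) and their summed signal was 863 in GF and 282 in colonized mice. Ptprc, the CD45 gene, had 271 and 23.1 there, and none of the 7 lay under the floor. Intraepithelial and cytotoxic lymphocyte markers were at least 2-fold lower for 8 of 10, with a median of −2.37. Their summed signal was 4363 and 379, and the ratios ran from Gzmb (−4.62) to Prf1 (0.00). Klrd1 and Nkg7 of that list were under the floor in the colonized array. T cell markers were at least 2-fold lower for 2 of 7 (median −0.51, with Cd3g −3.62 or lower and Cd3e 0.24). By the same limit B cell markers were lower for 0 of 6 (median −0.34) and dendritic cell markers for 0 of 5 (median −0.01). Macrophage markers passed it for 1 of 8, Lyz2 at −2.09 (median −0.02). Below 0 lay 5 of 7 T cell, 4 of 6 B cell, 4 of 8 macrophage and 3 of 5 dendritic cell markers, beside 47.6% of all measured genes. Epithelial markers were at least 2-fold lower for 2 of 15 (median −0.41, Anpep lowest at −1.23) and below 0 for 13 of 15. Stromal markers, by contrast, were at least 2-fold higher for 3 of 6 (median 0.96). So were pancreatic acinar markers for 4 of 4 (median 3.44) and gastric markers for 6 of 6 (median 5.98). The part of these shifts in the Tnfaip3 and Traf1 ratios was not tested.

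In the PP, markers of other cells moved as well. Leukocyte markers had a median log2 ratio of 0.07 and T cell markers of 0.26, above 0 for 8 of 8, with none at 2-fold. Macrophage markers lay below 0 for 9 of 9 (median −0.54, summed signal 6484 in GF and 5125 in colonized mice) and dendritic cell markers for 7 of 7 (median −0.31, with Flt3 lowest at −1.09). Medians were −0.14 for B cell, −0.05 for intraepithelial and cytotoxic lymphocyte (Gzma lowest at −1.17), −0.24 for epithelial, −0.30 for stromal, −0.21 for acinar and −0.06 for gastric markers, the last 2 resting on 2 and 4 measured genes. Stromal markers also lay below 0 for 7 of 7, B cell markers for 6 of 7 and epithelial markers for 6 of 8. Of all measured genes 57.3% lay below 0 in this tissue. Rel, Tnfaip3, Birc3 and Bcl3, 4 of the 7 members, had negative ratios there too. A link between these members and any of the marker lists was not tested.

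Most members differed more between the tissues than with colonization, the exceptions being Tnfaip3, whose IEC ratio with colonization (−1.53) was larger in size than its tissue ratio in GF mice (0.95), and Bcl3, whose tissue ratio in colonized mice was 0.18. In GF mice 4 of 7 members, Rela, Rel, Traf1 and Birc3, were at least 2-fold higher in the PP than in the IECs and 0 were 2-fold lower, against 18.5% higher and 16.0% lower of 14036 measured genes. In colonized mice Tnfaip3 joined them, which made 5 of 7 higher and 0 lower, against 16.8% and 18.4% of 14031 genes. All 7 members lay above 0 in both, with a median log2 ratio of 1.34 in GF and 2.06 in colonized mice, whereas over all genes the medians were −0.04 and −0.11. The pairs of tissues hold the same arrays as the colonization ratios, so a lower IEC signal in colonized mice raises its tissue ratio by construction.

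By the brightest probe sets Traf1 stood furthest apart between the tissues, 8.86-fold in GF and 22.2-fold in colonized mice, and its other probe set gave 10.6-fold and at least 11.8-fold. Birc3 was 5.28-fold and 5.37-fold higher in the PP by its brightest probe set and 10.7-fold and 8.70-fold by the other. Without less specific probe sets, which leaves that other one, Birc3 stood further apart than Traf1 in GF mice (log2 ratios 3.41 and 3.15). Rel was 3.70-fold and 4.37-fold higher in the PP, and Rela 2.54-fold and 2.87-fold. For Tnfaip3 the ratio went from 1.93-fold in GF to 4.16-fold in colonized mice, and with averaged probe sets from 0.32 to 1.23 on the log2 scale. Nfkbia was 1.46-fold and 1.80-fold higher by its brightest probe set, and its least bright one (1420089_at) gave log2 ratios of −0.02 and −0.09. Bcl3 went the other way from Tnfaip3, from 1.84-fold in GF to 1.14-fold in colonized mice. The larger Traf1 ratio in colonized mice rested on an IEC signal next to the floor: with the floor at the 60th percentile the log2 ratios were 2.95 in GF and 3.24 in colonized mice.

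The rest of the pathway was read from 6 lists of 81 other genes, 76 of them with a probe set. For the PP, 0 of 70 measured ones reached 2-fold upward and 1, the chemokine gene Cxcl10, was lower by that much (median −0.09 on the log2 scale). In the IECs 0 of 67 were higher and 2, the chemokine gene Ccl5 and the activation marker gene Cd83, lower, with a median of −0.08. Beside these counts stand 0.149% upward and 0.573% downward of all measured genes in the PP, and 2.63% and 1.54% in the IECs. Pathway counts of 0, 1 and 2 genes lie near those shares, and a difference from them was not tested. The pathway counts rest on the brightest probe set of each gene. Another measured probe set existed for 31 genes in the PP and 24 in the IECs, and for 14 and 16 of them at least 1 such probe set pointed the other way. Of the 53 other probe sets measured in the IECs 1 passed 2-fold, for Otud7b, and of 63 in the PP none did. Directions of single pathway genes given below are those of the brightest probe set. Other probe sets are given below for some genes only. A gene named without them can also have some that point the other way, as Ikbkg, Tradd and Cflar do in the PP.

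Among the other subunits and IκB proteins, 1 of 6 measured genes lay above 0 in the PP (median −0.13) and 1 of 5 in the IECs (median −0.23). That gene was Nfkb2, which encodes p100, the precursor protein of the non-canonical pathway, with log2 ratios of 0.37 and 0.11. Its partner subunit gene Relb had −0.40 and −0.52, with signals of 277 and 209 in the PP and 157 and 110 in the IECs. Nfkbid, an atypical IκB gene, had −0.65 and −0.30, and Nfkbiz, another, −0.03 and −0.09. The other probe sets of Nfkbiz had 0.61 (1448728_a_at) and 0.83 (1457404_at) in the IECs, so its direction there depended on the probe set. None of these reached 2-fold.

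Of 9 other feedback and inhibitor genes, 3 lay above 0 in each tissue, with medians of −0.15 and −0.09. Cyld, a deubiquitinase that holds back NF-κB as A20 does, had 0.19 in the PP and −0.31 in the IECs. Tax1bp1, a partner of A20, had −0.23 in both. Lowest in the PP was Tnip2 (−0.35), the second highest there was Cflar (0.03), and Otud7b (0.36) and Birc2 (0.14) were highest in the IECs. The other probe sets of Otud7b had 0.14, −0.01 and −1.04 (1457716_at, with signals of 34.9 and 16.9) in the IECs, the last past 2-fold and against the brightest one. By the brightest probe sets no gene of this list was 2-fold apart in either tissue.

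Kinases and adaptors, 17 measured of 22, had medians of 0.00 and −0.08. Prkcq, the kinase of T cell receptor signalling, was highest in the PP (0.48, with signals of 339 and 473) and second highest in the IECs (0.34). Traf6, the adaptor of Toll-like receptors, was lowest in the IECs by its brightest probe set (−0.63, with signals of 60.9 and 39.4), but another (1421376_at) gave 0.00. Prkcb, which acts downstream of the B cell receptor, was next at −0.62 or lower, and Traf5 was highest there (0.35). In the PP Btrc (−0.37) and Ikbkg (−0.31), which encodes the regulatory subunit of the IκB kinase, were lowest, and Tradd (0.14) was second highest.

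Receptors had medians of −0.08 and −0.07 over 9 genes. Tlr4, the receptor for lipopolysaccharide, was lowest in the PP (−0.73, signals 33.3 and 20.02), with −0.31 from another probe set (1418162_at). Tlr2, which senses bacterial lipoproteins, had 0.07 there, and all 4 of its signals lay between 18.8 and 29.4 and so near the floor. Tnfrsf11a had −0.51 in the PP and 0.30 in the IECs, with −0.37 and −0.20 from its other probe set (1430259_at), and Tnfrsf1a, a TNF receptor gene, 0.07 in the PP. In the IECs Tlr2 had 0.22, Tnfrsf1b −0.18 (0.49 by its other probe set, 1448951_at) and Tnfrsf13c −0.22 or lower. Ligands, 6 measured of 8 in each tissue, had medians of 0.09 and −0.04. Il1b, the interleukin-1β gene, was lowest in both (−0.42 and −0.48), with all 4 signals between 18.2 and 26.0 and so near the floor. Lta (0.28) and Tnf (0.27) were highest in the PP, where Tnfsf13b, the BAFF gene, had −0.30. Tnfsf13b had 0.43 in the IECs, Cd40lg at least 0.26 and Ltb −0.30. No receptor or ligand gene was 2-fold apart in either tissue.

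Target genes were a selection of those known to be induced by NF-κB, without the members and the genes placed on the other lists. For the PP 18 of 23 lay below 0 (median −0.27), beside 57.3% of all measured genes. For the IECs 12 of 21 did (median −0.09), beside 47.6%. In the PP Cxcl10, which interferon induces as well, had signals of 73.9 and 33.5 (−1.14), and Ebi3, a cytokine subunit gene, 202 and 114 (−0.82). Mmp9 (0.24, with signals of 20.2 and 23.8 near the floor) and Saa3 (0.23) were highest there. In the IECs Ccl5, which cytotoxic lymphocytes also make, had 1408 and 126 (−3.49) and Cd83 had 115 and 54.6 (−1.08). Saa3, an acute-phase gene, was highest there with 80.1 and 158 (0.98), just under 2-fold, followed by Bcl2l1 (0.48).

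**Figure D3:**
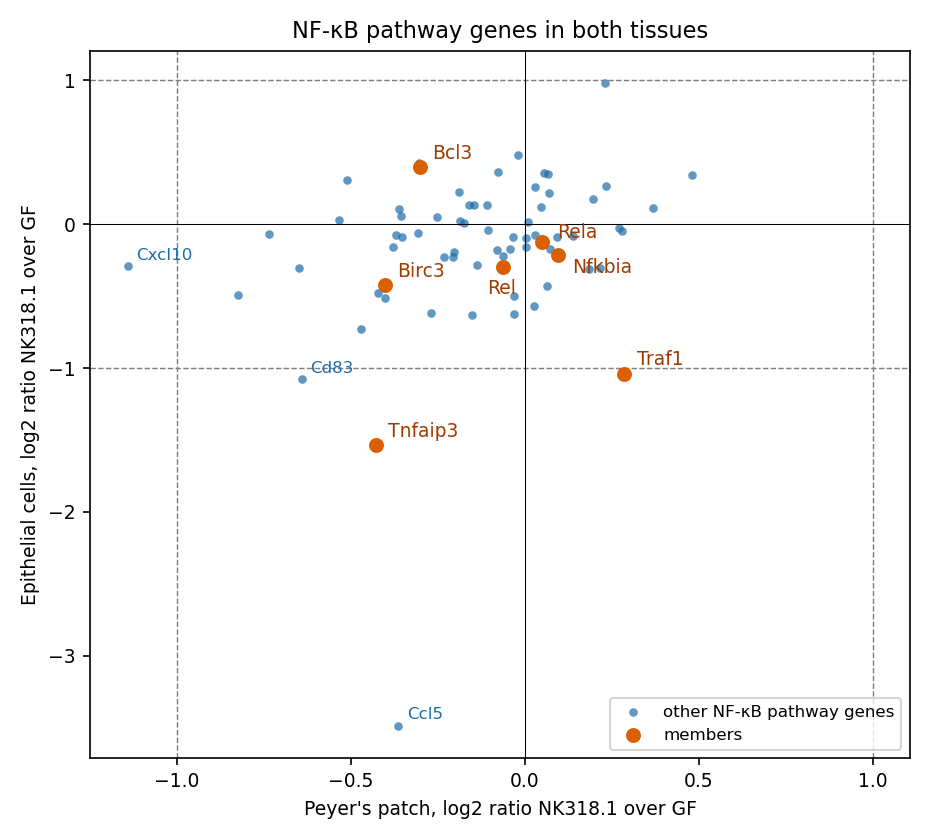
Log2 signal ratio, NK318.1 over GF, in the PP (horizontal) against the IECs (vertical) for the 7 members (orange) and the other pathway genes measured in both tissues (blue); dashed lines mark 2-fold and genes past it are named. Tnfaip3, Birc3 and Rel lie below 0 on both axes, whereas Traf1 and Bcl3 lie on opposite sides of 0 in the 2 tissues. So do Rela (0.05 in the PP and −0.13 in the IECs) and Nfkbia (0.10 and −0.21), closer to 0.

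**Figure D4:**
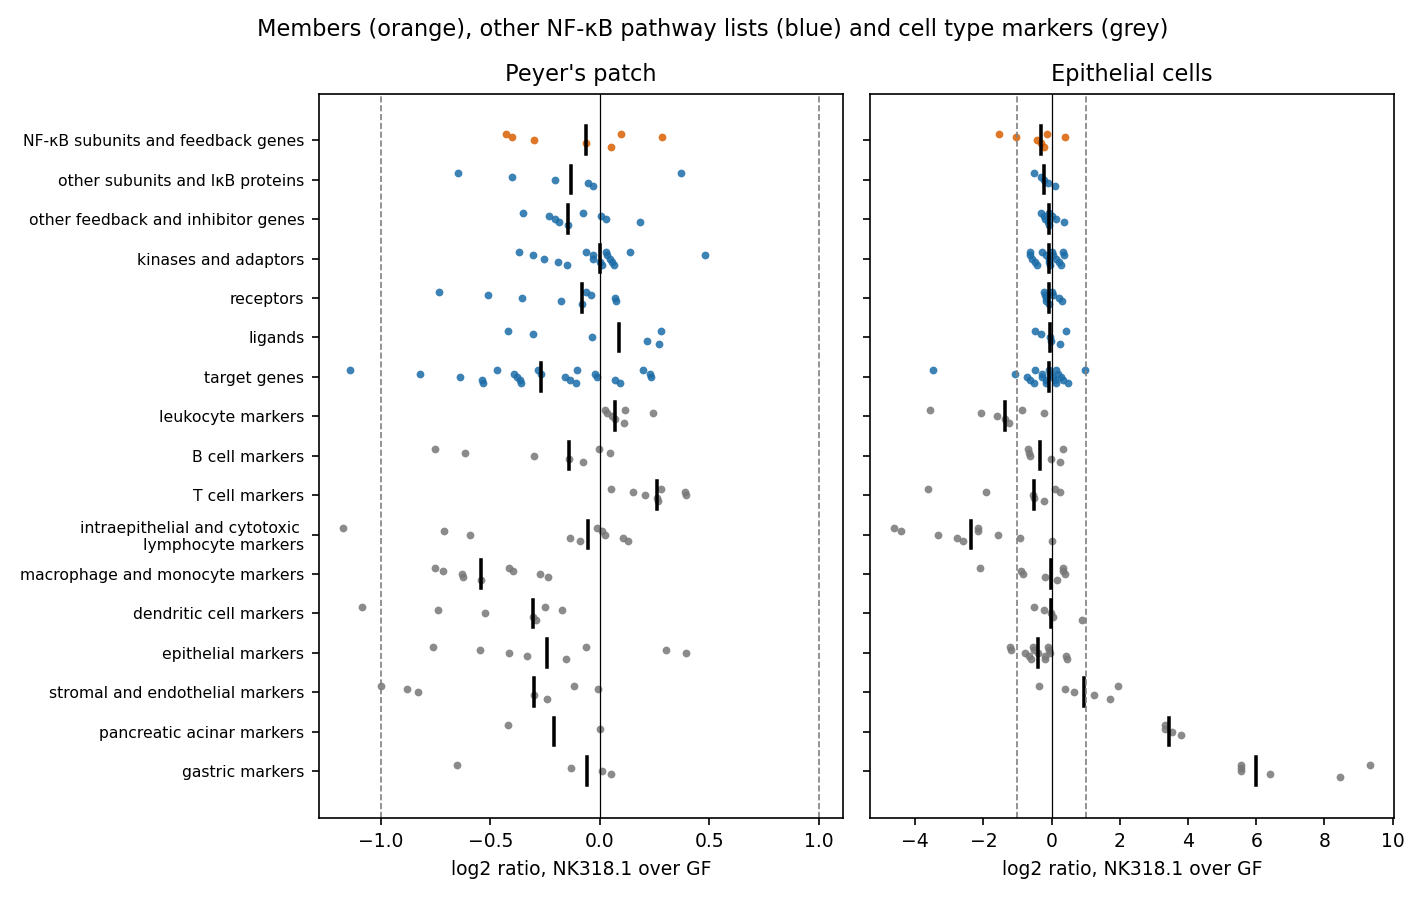
Log2 signal ratio, NK318.1 over GF, of each measured gene of the members, the 6 pathway lists and the 10 marker lists; black bars are medians, dashed lines mark 2-fold, and the horizontal scale differs between the panels. In the IECs the pathway lists have medians between −0.23 and −0.04, while the medians of the intraepithelial and cytotoxic lymphocyte (−2.37), acinar (3.44) and gastric (5.98) marker lists lie far from 0.

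For each member, the genes with the most similar pattern over the 4 arrays were found among 11428 genes, as the root mean square difference of log2 signals centred on each gene's mean. For Tnfaip3 they were Cd160 (0.12), with signals of 172, 114, 73.8 and 24.9, and Ms4a7 (0.20), with 149, 101, 80.8 and 19.5. Cd160 is 1 of the 10 genes on the intraepithelial and cytotoxic lymphocyte list, and Ms4a7 is on none of the marker lists. In GF mice 6 of those 10 genes were higher in the PP than in the IECs, as Tnfaip3 was, and 4 were lower. Other Cd160 probe sets had log2 ratios with colonization of 0.19 (1420067_at) and −0.39 (1420396_at) in the PP. In the IECs they had −0.41 and −1.24. For Traf1 they were Pag1 (0.07) and F2r (0.12), and for Birc3 Etv3 (0.06) and Ptprj (0.06). Rela came closest to B4galt7 (0.003) and Snrk (0.006), Rel to Lrrfip1 (0.006) and Tmx3 (0.03), Nfkbia to Gm20300 (0.03) and Nkap (0.03), and Bcl3 to Gpam (0.004) and Gemin8 (0.01). Each likeness rests on 4 points and a choice among many genes. Tnfaip3 had the largest distance to its nearest gene of the 7 members.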

How the data were processed

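RNA of 4 pools was hybridized to 1 Affymetrix array each. The authors deposited MAS5 signals, 1 linear intensity for each probe set; the version of MAS5 and its settings were not given in the sources used here. They were used without further scaling, and depth has no meaning for arrays, whose number, 1 per group, limits the precision. Beside 64 controls, the arrays held 45037 probe sets: 34945 with 1 gene, 932 with several and 9160 with none, the last 2 kinds being left out. Probe sets were named from the platform annotation, with symbols updated by Entrez ID to RefSeq GRCm38.p6.

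Each gene was represented by the single-gene probe set whose mean log2 intensity was highest. For the floor, the 40th percentile of intensity was taken on each array and the median of the 4 was used. A gene was measured in a comparison if either array lay above the floor, and a ratio with a floored value is a bound. The limit was 2-fold, as in the methods of the study, and their adjusted p-value cannot be computed. Named are all members with their probe sets, of each pathway list the 2 highest and 2 lowest genes in each tissue and any gene at 2-fold, of marker lists the extremes where given, and for each member the 2 genes nearest in profile. The members and lists were chosen with earlier results of these data known. Other probe sets named for Traf6, Tlr4, Nfkbiz, Otud7b, Tnfrsf11a, Tnfrsf1b and Cd160, and the Klrd1, Nkg7, Ptprc, Cd3e and Cd3g values, were chosen after they were seen. So were Ikbkg, Tradd and Cflar as examples of genes with other probe sets that point the other way.

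Other settings tried were quantile normalization, median centring, no floor or one at the 25th or 60th percentile, the mean of a gene's probe sets, leaving out less specific probe sets, and limits of 1.5-fold and 4-fold. Less specific probe sets were taken as those with names ending in _s_at, _x_at or _a_at. The procedure was tested on simulated data. Python 3.11.15, numpy 2.4.6, pandas 2.3.3 and matplotlib 3.10.9 were used.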

Additional observations from a re-analysis of the deposited data

Results flagged for a closer look

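Traf1 and Bcl3 had ratios on opposite sides of 0 in the 2 tissues, by at least 1.2-fold in each. The log2 ratio of Traf1, colonized over GF, was 0.29 in the PP and −1.04 in the IECs, and that of Bcl3 was −0.30 and 0.40. With 1 pooled array per group this difference was not tested. The other Traf1 probe set had −0.02 in the PP and −0.17 or lower in the IECs, and Bcl3 was read by 1 probe set only.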

How the results depend on the processing

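No paired analysis was possible because a group held only 1 array, and for the same reason no array could be left out. Of 190 values of the members under other settings, 176 stayed within 1.2-fold of the value given, 14 moved further and 0 past 2-fold changed direction. Smaller values did change sign. The Bcl3 log2 ratio of PP over IECs in colonized mice went from 0.18 to −0.003 with quantile normalization. That of Nfkbia with colonization in the IECs went from −0.21 to 0.01 with averaged probe sets. The members' median log2 ratio stayed within 1.2-fold in all settings, from −0.18 to −0.02 in the PP and from −0.37 to −0.21 in the IECs. The −0.18 came without less specific probe sets, a setting that leaves out the only Rela probe set and so rests on fewer members. Members at least 2-fold lower in the IECs numbered 1 with the floor at the 60th percentile, 1 with averaged probe sets and 0 at 4-fold, and under the first pair of settings that member was Tnfaip3, while Traf1 was not measured or had only a bound. Pathway genes lower in the PP numbered 2 with the floor at the 25th percentile, 2 without a floor, 0 with the floor at the 60th percentile, 5 at 1.5-fold and 0 at 4-fold. In the IECs they were 4, 4, 6 and 1 lower with the floor at the 25th percentile, without a floor, at 1.5-fold and at 4-fold, and 1 was higher at 1.5-fold. A changed fold limit alters such counts by construction, and a changed floor alters the ratios that are bounds and the genes that count as measured. Signals near the floor limit the Traf1 ratio and the second Tnfaip3 probe set in the IECs. Rel, with IEC signals of 30.0 and 24.4, was likewise not measured there with the floor at the 60th percentile. The second Birc3 probe set also lay near the floor in the IECs, at 22.0 and 18.3.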

Other observations

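Ltb and its receptor differed between the tissues in opposite directions. Ltb, a lymphotoxin gene, had signals of 3168 and 3679 in the GF and colonized PP and of 34.9 and 28.3 in the IECs, whereas Ltbr, the gene of its receptor, had 34.3 and 26.8 in the PP and 222 and 231 in the IECs. Tnfrsf1a, a TNF receptor gene, had 164 and 172 in the PP and 420 and 373 in the IECs, and Tradd, its adaptor, 159 and 175 against 280 and 265. Other genes lay the other way. Tnfrsf13c, the BAFF receptor gene of B cells, had 1182 and 1133 in the PP against 18.0 and 14.2 in the IECs. Prkcb had 2126 and 2080 against 23.9 and 8.07, and Nfkbie, an IκB gene, 490 and 472 against 15.3 and 12.6. Of the pathway genes outside the members, 29 of 72 were at least 2-fold higher in the PP of GF mice and 6 lower, and in colonized mice 30 of 70 were higher and 9 lower. Over all measured genes 18.5% were higher and 16.0% lower in GF mice, and 16.8% and 18.4% in colonized mice. Not every pair ran this way, since Tnf (log2 ratios of PP over IECs 0.77 in GF and 1.07 in colonized mice) and the receptor gene Tnfrsf1b (1.65 and 1.75) were both above 0. These genes were chosen after their values were seen.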
